A study of Mus musculus with 8 samples.

Results

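The MYC and MAX network was followed through 9 genes, *Myc*, *Mycn*, *Mycl*, *Max*, *Mxd1*, *Mxd3*, *Mxd4*, *Mxi1* and *Mnt*, in mouse pancreatic ductal adenocarcinoma (PDAC) cells in which SMAD4 can be switched off and on. The members were chosen by name, with earlier results of these data known. All 9 were found among the 53465 genes of the count table. All 9 also passed the filter on low counts, which left 14301 genes for testing.

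MYC, MYCN and MYCL are basic helix-loop-helix leucine zipper transcription factors that bind DNA only as heterodimers with MAX, chiefly at the E-box motif, and activate genes for ribosome production, nucleotide synthesis and growth. The MXD proteins (MXD1, MXI1, MXD3 and MXD4) and MNT compete for the same partner and the same sites and recruit SIN3 and histone deacetylases, so they act as antagonists of MYC. In normal epithelial cells, repression of *Myc* is a textbook part of the cytostatic response to TGFβ, a ligand whose receptors signal through SMAD2 and SMAD3 with SMAD4 as their common partner.

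The libraries came from the tumor cell lines B73 and B87 of the KC-shSmad4 mouse model, each grown from a primary pancreatic tumor. All cells carried *Ptf1a*-Cre, which acts in the pancreatic lineage, a Cre-activated rtTA3 linked to the mKate2 reporter, and a doxycycline (Dox)-inducible short hairpin RNA against *Smad4*. Dox kept *Smad4* silenced (Smad4 off) and 5 days of Dox withdrawal restored it (Smad4 on), after which 100 pM recombinant TGFβ1 or 2.5 µM SB505124, which blocks the kinase of the type I TGFβ receptor, was given for 24 h. The 4 groups (Smad4 off with SB505124, Smad4 on with SB505124, Smad4 off with TGFβ1, Smad4 on with TGFβ1) held 1 library from each line, and the comparisons ask how the network's transcripts respond to TGFβ1 and to *Smad4* restoration. Smad4 state and Dox exposure changed together, so their effects cannot be told apart here. The reference for TGFβ1 was the inhibitor and not untreated cells, so the effect of added ligand and that of blocked signaling cannot be told apart either.

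The 8 libraries held 18389235 to 23440550 counts. *Smad4* was at 35.0 to 36.5 CPM (counts scaled to a library total of 1000000) in the 4 Smad4-off libraries and at 98.0 to 116.8 CPM in the 4 Smad4-on libraries, as their labels state. Of the ductal or epithelial markers, *Krt18* lay at 606.9 to 2241.3 CPM, whereas *Epcam* reached only 2.12 CPM. *Krt8* lay at 1201.0 to 2224.7 CPM in B73 and at 225.5 to 408.7 CPM in B87. *Krt7* lay at 437.9 to 652.8 CPM in B73 and at 12.9 to 28.9 CPM in B87. The ranges of *Krt19*, *Sox9* and *Muc1* over the groups overlapped between the lines. Within every group, *Krt19* and *Muc1* were higher in B73 than in B87. *Sox9* was higher in B73 in each group except Smad4 on with SB505124. *Cdh1* ran from 471.6 CPM in B73 down to 10.7 CPM in the Smad4-on, TGFβ1-treated B87 library. Among 6 immune markers, 5 were at or under 3 counts in every library (summed level 1.24 to 6.78 CPM), as were 4 of 5 acinar and all 5 endocrine markers, and of 6 fibroblast markers *Lum* and *Dcn* were at or under 3 counts while the summed level ran from 3.37 to 622.9 CPM. *Col1a1* made up most of the highest sum, and stood at 0.368 to 4.71 CPM in the B73 libraries and 27.1, 121.7, 161.7 and 584.9 CPM in B87 (Smad4 off and then on with SB505124, Smad4 off and then on with TGFβ1). *Col3a1* went the other way under TGFβ1. With Smad4 on it had 1.55 CPM against 34.3 CPM with Smad4 off (B73), and 20.0 against 41.8 CPM (B87). *Pdgfrb* and *Pdgfra* were likewise lower with Smad4 on under TGFβ1, in both lines. Under SB505124, *Col3a1*, *Pdgfrb* and *Pdgfra* were lower with Smad4 on in B73 but higher in B87. Of 4 endothelial markers *Tek* was at or under 3 counts, and the summed level ran from 0.707 to 26.2 CPM, highest in the Smad4-off, TGFβ1-treated B87 library, where *Kdr* had 506 counts. *Cdh5* was instead highest with Smad4 on and TGFβ1, at 54 counts in B73 and 40 in B87, against 23 and 16 with Smad4 off and TGFβ1. *Pecam1* had at most 5 counts in any library. The part of these markers in the results was not tested. In bulk libraries, fewer cells of a kind and less RNA per cell cannot be told apart. A gene passed a comparison at a Benjamini-Hochberg adjusted p under 0.05 in edgeR's quasi-likelihood test over the 14301 genes, with the line as a term. That term takes out the constant difference between the 2 lines, which came from separate tumors. The spread left is how far the 2 lines differ in their changes between groups, and it is shared over all 8 libraries.

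The members lie on 8 chromosomes of GRCm38. *Myc* spans chr15:61985391-61990374 on the plus strand, *Mycl* chr4:122995652-123002485 (plus), *Mycn* chr12:12936093-12941914 (minus) and *Max* chr12:76937269-76962201 (minus). *Mxd3* spans chr13:55325168-55329823 (minus), *Mxd4* chr5:34173883-34187720 (minus), *Mxd1* chr6:86647042-86669161 (minus), *Mxi1* chr19:53310506-53375810 (plus) and *Mnt* chr11:74830920-74845725 (plus). The 3′ end of *Mxd3* overlaps *Prelid1* on the opposite strand. The library kit keeps strand, the strand setting of the counting was not given in the sources used here, and *Prelid1* stayed between 307.9 and 343.5 CPM in all 8 libraries. Of 75-base stretches of the members' transcripts, 4.41% in *Mxd4*, 1.75% in *Mxi1* and 1.19% in *Mxd3* occur in another gene, and 0.0% in the other 6.

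RefSeq promoter windows (GRCm38.p6, 250 bases before to 50 after a start) were at hand for 8 of the 9 members. They were searched on both strands for the E-box CACGTG, the SMAD-binding CAGAC, the FOXO motif TGTTTAC and the E2F motif GGCGGGAA, letters that were chosen after the windows had been read. The E-box stood in the windows of *Max*, *Mnt* and *Mxd4* and in 7.15% of all 32851 windows. The E2F motif stood only in that of *Mxd3* among the members and in 2.19% of all windows. CAGAC was found for *Max*, *Mxi1* and *Mycn*, a motif that 49.6% of all windows hold, and TGTTTAC for *Mxi1* (3.65% of all windows). The parts of 3 windows that lie before any annotated exon are shown with the E2F motif or the E-box in capitals. They were picked because *Mxd3* and *Mxd4* are the antagonists that passed for TGFβ1 in Smad4-on cells, and *Mnt* is the most abundant antagonist. The *Mxd4* call was just past the threshold (edgeR adjusted p = 0.0498). The shown parts follow. They are chr13:55329824-55329981 (minus strand) for *Mxd3*, chr5:34187721-34187960 (minus strand) for *Mxd4* and chr11:74830674-74830919 (plus strand) for *Mnt*, each written 5′ to 3′.
Mxd3: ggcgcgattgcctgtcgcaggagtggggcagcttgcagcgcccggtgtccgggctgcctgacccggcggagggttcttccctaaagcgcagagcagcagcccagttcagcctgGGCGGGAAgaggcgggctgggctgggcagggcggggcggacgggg
Mxd4: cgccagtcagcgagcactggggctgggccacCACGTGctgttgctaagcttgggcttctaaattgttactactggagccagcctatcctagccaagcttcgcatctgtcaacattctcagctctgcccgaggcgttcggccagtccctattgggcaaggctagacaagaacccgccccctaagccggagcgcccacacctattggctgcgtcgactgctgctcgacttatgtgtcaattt
Mnt: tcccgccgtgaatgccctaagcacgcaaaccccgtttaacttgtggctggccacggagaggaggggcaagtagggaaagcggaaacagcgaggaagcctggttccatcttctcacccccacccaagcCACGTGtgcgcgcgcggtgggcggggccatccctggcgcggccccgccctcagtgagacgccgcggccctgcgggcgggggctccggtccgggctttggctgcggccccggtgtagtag
Counted from the start site, the E2F motif of *Mxd3* begins at base -137, the E-box of *Mxd4* at base -219 and that of *Mnt* at base -123. The E-box of *Max* begins at base -3 and so spans the start. These matches describe the letters only.

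Levels of different genes were compared per length, as CPM divided by the kilobases of a gene's exons (RPKM). *Myc* was the most abundant member, with a median of 62.0 RPKM over the 8 libraries (40.0 to 71.8 RPKM), and *Max*, the shared partner, followed at 21.2 RPKM (18.5 to 24.1 RPKM). *Mnt* came next at 9.7 RPKM (8.14 to 11.6 RPKM). Each of these neighbours kept its place in 8 of 8 libraries. *Mxd3* (median 4.81 RPKM), *Mxi1* (4.24 RPKM) and *Mxd4* (3.27 RPKM) did not separate, as *Mxd3* was above *Mxi1* in 3 of 8 libraries and *Mxi1* above *Mxd4* in 6 of 8. *Mxd1* lay at 1.09 RPKM and *Mycl* at 0.702 RPKM, and their order held in 6 of 8 libraries. *Mycn*, the neuronal family member, had a median of 0.0341 RPKM. The width of the ranges differed as well. *Max* spanned 1.31-fold from its lowest to its highest library and *Mnt* 1.42-fold, against 3.62-fold for *Mxd3* and 9.22-fold for *Mycl*.

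**Figure D1:**
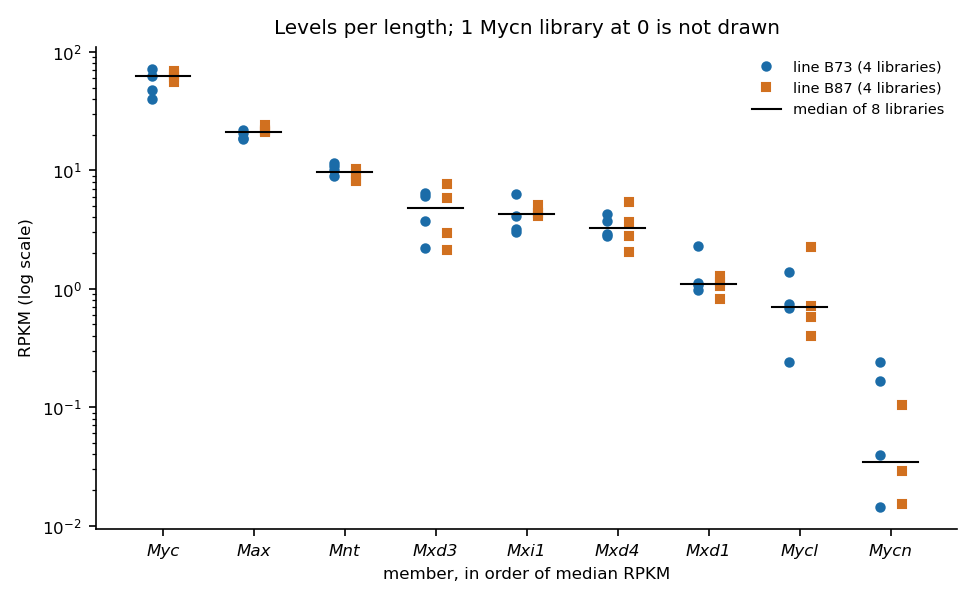
RPKM of each member (log scale) in the 4 libraries of line B73 (circles) and of line B87 (squares), with the median of 8 libraries as a line, in order of the median. *Myc*, *Max* and *Mnt* hold the top 3 places, *Mxd3*, *Mxi1* and *Mxd4* overlap, and *Mycn* lies lowest with 1 library at 0 that is not drawn.

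TGFβ1 changed *Mxd3*, *Mycl*, *Myc* and *Mxd4* in Smad4-on cells. *Mxd3* fell 2.98-fold, *Mycl* rose 2.18-fold, *Mxd4* rose 1.85-fold and *Myc* rose 1.55-fold. These are 4 of 9 members (3 higher, 1 lower), where 33.2% of all tested genes passed the same comparison (15.6% higher, 17.6% lower), and 5 members had an unadjusted p under 0.05. In Smad4-off cells 2 of 9 members passed, *Mycl* higher and *Mxd3* lower, where 13.2% of all tested genes did (6.96% higher, 6.24% lower). With the further rule of a change over 2-fold, *Mycl* and *Mxd3* passed in Smad4-on cells (13.9% of all tested genes) and *Mycl* in Smad4-off cells (5.93%). Without the line term the counts were 1 (*Mxd3*) and 0 in edgeR's test, and 3 (*Myc*, *Mxd3* and *Mxd4*) and 2 (*Mycl* and *Mxd3*) in DESeq2. With the line DESeq2 gave 4 and 2. On library totals without TMM scaling, which moved the median of all genes in Smad4-on cells from -0.02 to -0.15 on the log2 scale, *Mxd3* alone passed in Smad4-on cells.

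**Figure D2:**
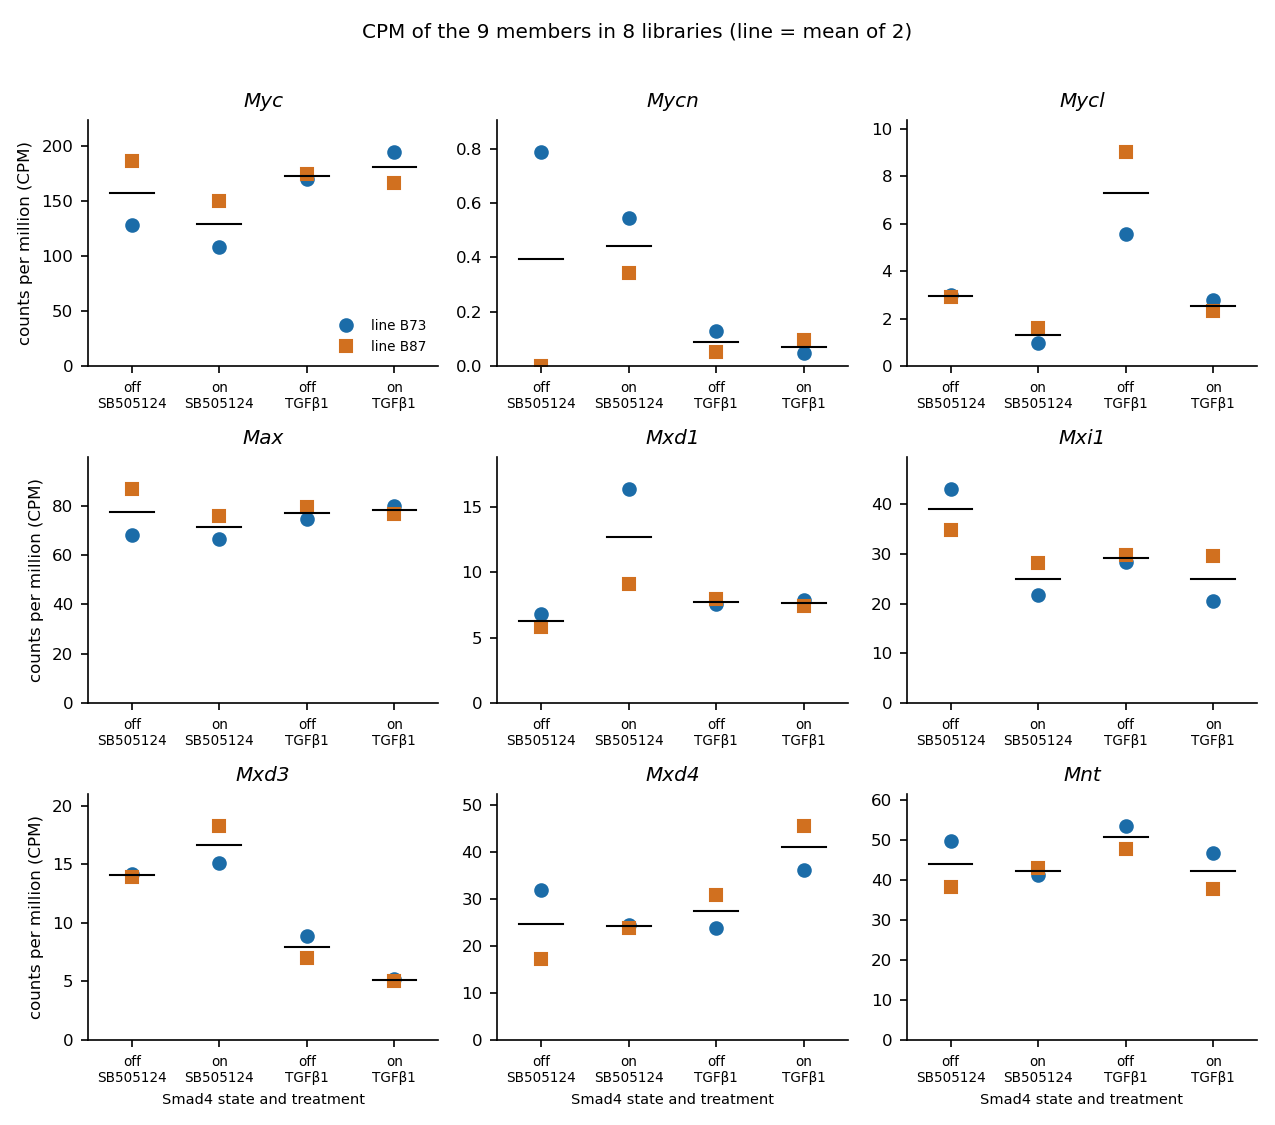
CPM of the 9 members in each library, by Smad4 state (off or on) and treatment, with circles for line B73, squares for line B87 and a line at the mean of the 2 libraries; each panel has its own axis from 0. *Mxd3* was lower in all 4 TGFβ1 libraries than in all 4 SB505124 libraries, whereas *Max* varied little.

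*Mxd3* encodes an MXD protein that, unlike the others, is known from proliferating cells. It stood at 14.2 CPM (B73) and 13.9 CPM (B87) with Smad4 off and SB505124, and 15.1 and 18.3 CPM with Smad4 on and SB505124. Under TGFβ1 it was 8.91 and 7.02 CPM with Smad4 off, and 5.18 and 5.04 CPM with Smad4 on. All 4 TGFβ1 libraries were therefore below all 4 inhibitor libraries, and the Smad4-on libraries were the lowest. In Smad4-on cells the log2 fold change was -1.58 ± 0.181 (SE, n = 2 per group), with an edgeR adjusted p of 0.00105 and values of -1.40 in B73 and -1.70 in B87. The call held in all 17 alternatives, with log2 fold changes from -1.75 to -1.38. In Smad4-off cells it was -0.76 ± 0.176 (edgeR adjusted p = 0.0336), with -0.61 in B73 and -0.92 in B87, and this call was lost without the line term (edgeR adjusted p = 0.108, range 0.00926 to 0.271 over the 17 alternatives). It was also lost on leaving out any of the 4 libraries compared. The difference between the TGFβ1 responses in the 2 Smad4 states was -0.82 ± 0.251 on the log2 scale and did not pass (unadjusted p = 0.014, edgeR adjusted p = 0.311), although both lines gave a like value, -0.79 and -0.78. With Smad4 on against off, *Mxd3* gave -0.52 ± 0.184 under TGFβ1 (edgeR adjusted p = 0.148) and 0.30 ± 0.171 under SB505124 (edgeR adjusted p = 0.539).

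*Myc*, the family's main member in these cells, was at 128.2 CPM in B73 and 186.8 CPM in B87 with Smad4 off and SB505124, and at 108.8 and 150.7 CPM with Smad4 on and SB505124. With TGFβ1 it was at 170.4 and 175.3 CPM with Smad4 off, and at 195.0 and 166.7 CPM with Smad4 on. In Smad4-on cells both TGFβ1 libraries were above both inhibitor libraries, and in Smad4-off cells the groups overlapped. No comparison gave a lower *Myc* level that passed. In Smad4-on cells the log2 fold change was 0.63 ± 0.185 (edgeR adjusted p = 0.0374), made up of 0.97 in B73 and 0.28 in B87. The call was lost without the line term (edgeR adjusted p = 0.124, range 0.000705 to 0.203 over the 17 alternatives), and on leaving out either Smad4-on SB505124 library, either Smad4-off TGFβ1 library or the Smad4-on TGFβ1 library of B73. In that last case the value was 0.34, the lowest of all. In Smad4-off cells the change was 0.21 ± 0.184 (edgeR adjusted p = 0.512), with 0.47 in B73 and -0.04 in B87. Averaged over Smad4 states, the TGFβ1 response of B87 was lower than that of B73 by a log2 difference of -0.60 ± 0.129, which did not pass (unadjusted p = 0.00403, edgeR adjusted p = 0.534). Smad4 on against off gave 0.20 ± 0.183 under TGFβ1 (95% interval -0.24 to 0.63) and -0.23 ± 0.184 under SB505124 (-0.67 to 0.20), with edgeR adjusted p of 0.57 and 0.671.

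*Mycl*, a MYC family gene best known from lung cancer and dendritic cells, was low throughout. It had 57 counts in B73 and 63 in B87 with Smad4 off and SB505124 (2.99 and 2.89 CPM), and 18 and 38 counts with Smad4 on and SB505124 (0.979 and 1.62 CPM). Under TGFβ1 it had 129 and 180 counts with Smad4 off (5.58 and 9.03 CPM) and 59 and 49 with Smad4 on (2.78 and 2.33 CPM). The 2 Smad4-off, TGFβ1-treated libraries were the highest of the 8 and the 2 Smad4-on, inhibitor-treated libraries the lowest, with the other 4 between 2.33 and 2.99 CPM. TGFβ1 raised *Mycl* by 1.34 ± 0.298 on the log2 scale in Smad4-off cells (edgeR adjusted p = 0.0297, B73 0.94, B87 1.66). The rise in Smad4-on cells was 1.12 ± 0.335 (edgeR adjusted p = 0.0407, B73 1.54, B87 0.63). Under TGFβ1, *Mycl* was the single member of 9 that passed for Smad4 on against off, a comparison that 6.8% of all tested genes passed (3.28% lower), and it fell by 2.56-fold (log2 -1.36 ± 0.300, edgeR adjusted p = 0.0446). Under SB505124 the value was -1.14 ± 0.333 (edgeR adjusted p = 0.202). The 3 calls were lost without the line term, at edgeR adjusted p of 0.125, 0.0942 and 0.203 in the order given, with ranges over the 17 alternatives of 0.000901 to 0.256, 0.00976 to 0.194 and 0.00136 to 0.263. Leaving out 1 of the 4 libraries compared ended the call in Smad4-off cells each time, and leaving out either Smad4-on SB505124 library, either Smad4-off TGFβ1 library or the Smad4-on TGFβ1 library of B73 ended that in Smad4-on cells. The *Mycl* call between Smad4 states under TGFβ1 was lost on leaving out any 1 of the 8 libraries.

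*Mycn*, too low for a precise comparison, had 15 counts in B73 and 0 in B87 with Smad4 off and SB505124, 10 and 8 with Smad4 on and SB505124, 3 and 1 with Smad4 off and TGFβ1, and 1 and 2 with Smad4 on and TGFβ1. A level of 3 counts is 0.128 to 0.163 CPM at these totals, a limit that covers counting error only. All 4 TGFβ1 libraries were at or under it. *Mycn* passed no comparison with all 8 libraries and the line as a term. For TGFβ1 in Smad4-on cells the fitted value was -2.48 ± 1.22 (95% interval -5.36 to 0.40, unadjusted p = 0.0807, edgeR adjusted p = 0.162), and it passed in 1 alternative, without the Smad4-off, SB505124-treated B87 library in which it had 0 counts (-2.40, edgeR adjusted p = 0.047).

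*Max*, which every MYC and MXD protein needs as a partner, varied least. It was at 68.2 CPM in B73 and 86.8 CPM in B87 with Smad4 off and SB505124, 66.5 and 75.9 CPM with Smad4 on and SB505124, 74.6 and 79.3 CPM with Smad4 off and TGFβ1, and 79.7 and 76.8 CPM with Smad4 on and TGFβ1. Its largest fitted change in the 4 comparisons was 0.27 ± 0.110, for TGFβ1 in Smad4-on cells (95% interval 0.01 to 0.53, edgeR adjusted p = 0.101). For Smad4 on against off the intervals were -0.11 to 0.41 under TGFβ1 and -0.33 to 0.19 under SB505124.

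Of the other antagonists, *Mxd4* was raised by TGFβ1 in Smad4-on cells. It was at 31.9 CPM in B73 and 17.2 CPM in B87 with Smad4 off and SB505124, and at 24.5 and 23.8 CPM with Smad4 on and SB505124. Under TGFβ1 it was at 23.7 and 30.9 CPM with Smad4 off, and at 36.2 and 45.5 CPM with Smad4 on, the highest of the 8 libraries. The log2 change in Smad4-on cells was 0.89 ± 0.284 (edgeR adjusted p = 0.0498, B73 0.68, B87 1.07), just past the threshold. It was lost without the line term (edgeR adjusted p = 0.104, range 0.00094 to 0.261 over the 17 alternatives) and on leaving out any 1 of the 8 libraries other than the 2 with Smad4 off and SB505124. The call was also lost with a filter of at least 10 counts in every library, on library totals without TMM scaling and with the rule of over 2-fold. In Smad4-off cells the lines went opposite ways, -0.37 in B73 and 0.89 in B87. Smad4 on against off under TGFβ1 gave 0.70 ± 0.282 (unadjusted p = 0.0415, edgeR adjusted p = 0.192), with 0.74 in B73 and 0.67 in B87. That comparison passed for *Mxd4* in 4 alternatives (lowest adjusted p 0.0127), namely with no filter on low counts, in a fit of the 4 libraries compared and without either Smad4-off, SB505124-treated library.

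*Mxd1*, the founding MXD gene and one linked to differentiation, gave its highest values with Smad4 on and SB505124. It was at 6.83 CPM in B73 and 5.79 CPM in B87 with Smad4 off and SB505124, against 16.4 and 9.09 CPM with Smad4 on and SB505124. The 4 TGFβ1 libraries lay between 7.46 and 7.98 CPM whatever the Smad4 state. For Smad4 on against off under SB505124 the log2 change was 1.03 ± 0.247 (B73 1.31, B87 0.67), which did not pass in edgeR (adjusted p = 0.127). It passed in DESeq2 with the line (adjusted p = 0.0395, range 0.00459 to 0.663 over the 17 alternatives). No member passed that comparison in edgeR's test, where 1.59% of all tested genes did. For *Mxd1*, *Mycl* and *Mxi1* the unadjusted p was under 0.05, and DESeq2 with the line passed *Mxd1* alone. For the difference between the TGFβ1 responses in the 2 Smad4 states, 0.196% of all tested genes passed in edgeR's test and 0 of 9 members did. There *Mxd3* and *Mxd1* had an unadjusted p under 0.05, with *Mxd1* at -0.93 ± 0.349 (edgeR adjusted p = 0.409, B73 -1.13, B87 -0.65), and DESeq2 with the line passed no member.

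*Mxi1*, an MXD gene with more than 1 promoter whose transcripts the gene counts do not separate, was at 43.1 CPM in B73 and 34.9 CPM in B87 with Smad4 off and SB505124, and at 21.8 and 28.1 CPM with Smad4 on and SB505124. Under TGFβ1 it was at 28.3 and 29.8 CPM with Smad4 off, and at 20.5 and 29.5 CPM with Smad4 on. Both Smad4-off, inhibitor-treated libraries were above the other 6. The log2 change for Smad4 on against off under SB505124 was -0.61 ± 0.188 (unadjusted p = 0.014, edgeR adjusted p = 0.228). *Mnt*, the broadly expressed antagonist, ranged from 37.6 to 53.5 CPM. Its groups overlapped in every comparison except Smad4 on against off under TGFβ1, where 46.7 and 37.6 CPM lay below 53.5 and 47.8 CPM, with a fitted change of -0.15 ± 0.120 (edgeR adjusted p = 0.504).

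**Figure D3:**
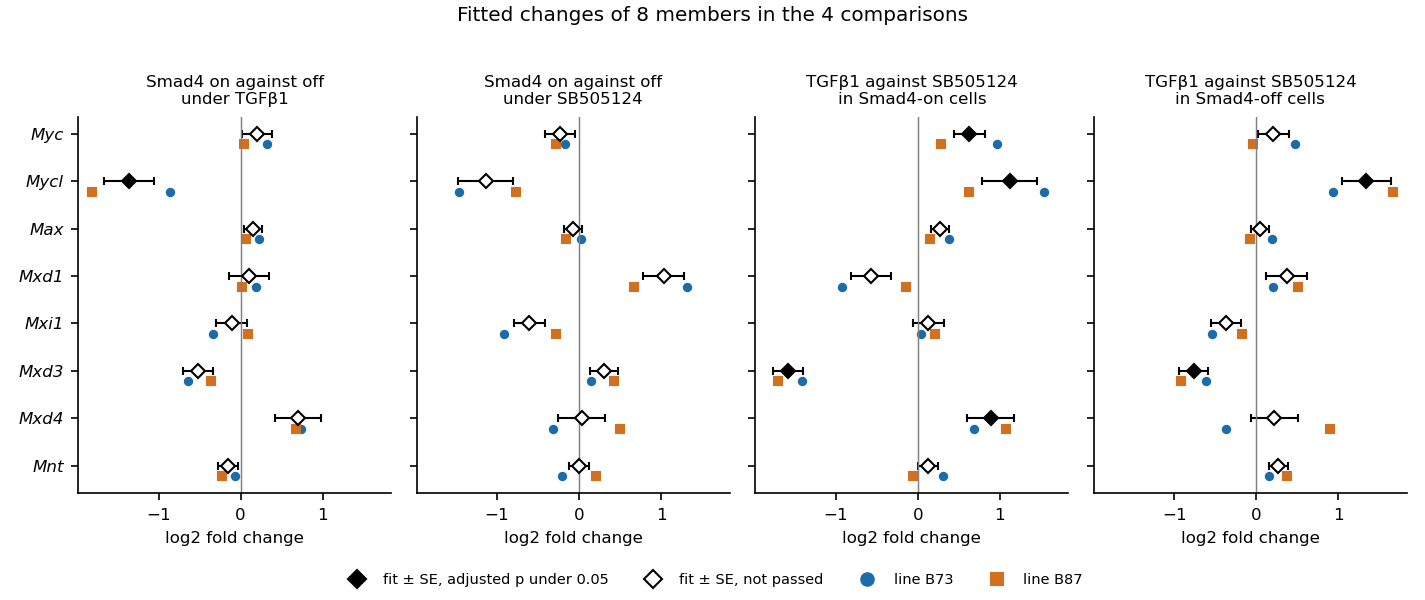
Log2 fold changes of 8 members (*Mycn* left out) in 4 comparisons; diamonds give the fit with its SE, filled where the adjusted p was under 0.05, and circles and squares give the change within line B73 and line B87. The filled points are *Mxd3* (-1.58 and -0.76), *Mycl* (1.12, 1.34 and -1.36), *Myc* (0.63) and *Mxd4* (0.89).

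Between the lines themselves, averaged over the groups, no member passed in edgeR's test, where 18.6% of all tested genes did. *Mnt* alone had an unadjusted p under 0.05 (log2 B87 over B73 -0.21 ± 0.0852, edgeR adjusted p = 0.151). In DESeq2 with the line, *Mnt* had an adjusted p of 0.2. No member passed for a difference between lines in the TGFβ1 response (0.0% of all tested genes) or in the Smad4 effect (0.406% of all tested genes). In the former *Myc* and *Mxd4* had an unadjusted p under 0.05, with *Mxd4* at 0.82 ± 0.272 in favour of B87. In the latter *Mxi1* did, at 0.53 ± 0.176. These line terms were fitted in edgeR only.

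Summed per length, the MYC family exceeded the 5 antagonists in every library. The log2 ratio of the MXD and *Mnt* sum to the MYC sum ran from -1.81 to -0.772. *Myc* made up 96.6% to 99.1% of the MYC sum, and *Mnt* 36.9% to 49.5% of the antagonist sum. In B73 the ratio was -0.792 with Smad4 off and -0.772 with Smad4 on under SB505124, and -1.46 and -1.81 under TGFβ1. In B87 the 4 values were -1.65, -1.15, -1.57 and -1.56 in the same order. The lowest and the highest ratio were thus both in B73, and the B87 value that stood apart was that with Smad4 on and SB505124. With 1 library per line and group, these ratios are descriptions without a test, and they compare transcripts and not proteins.

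**Figure D4:**
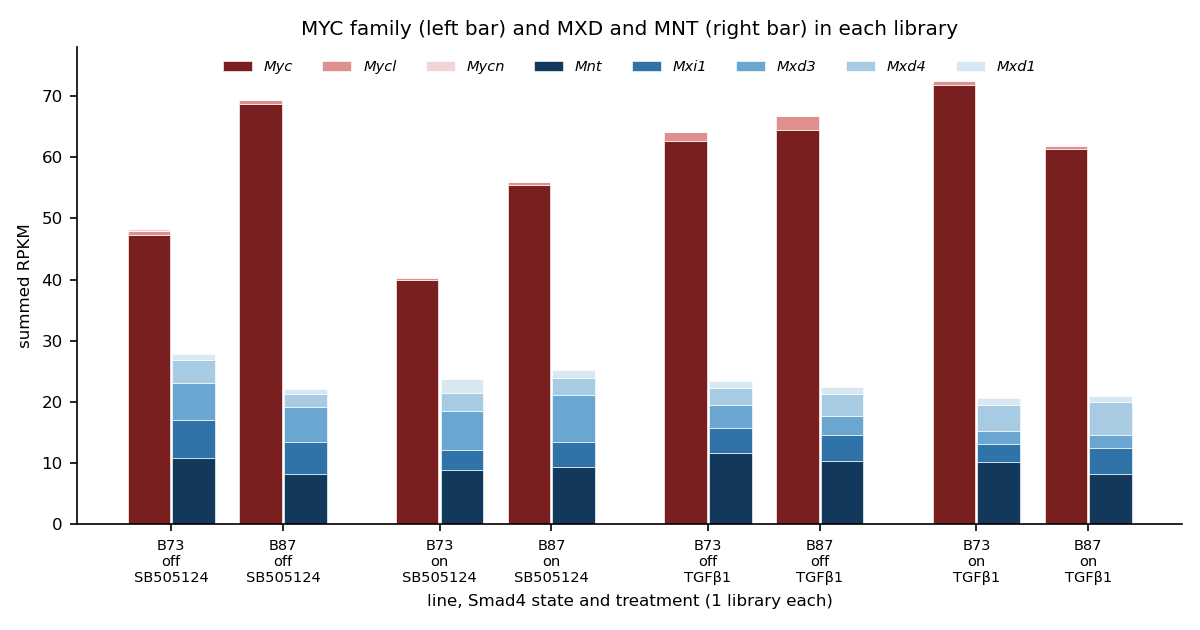
Summed RPKM of *Myc*, *Mycl* and *Mycn* (left bar) and of *Mnt*, *Mxi1*, *Mxd3*, *Mxd4* and *Mxd1* (right bar) in each of the 8 libraries, stacked by gene from 0. *Myc* fills nearly all of the left bars, between 96.6% and 99.1%, and the share of *Mxd3* in the right bars is smallest in the 2 Smad4-on, TGFβ1-treated libraries.

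Genes for proteins that work with the network were read from lists chosen by known role, with earlier results of these data known. Of the extended network, *Mlxip*, the glucose-sensing partner of MLX, rose under TGFβ1 in Smad4-on cells (log2 0.27 ± 0.0783, edgeR adjusted p = 0.035). *Mga*, a MAX partner in a Polycomb complex, gave 0.12 ± 0.0775 and *Mlx* -0.12 ± 0.104, neither of which passed, and *Mlxipl* had at most 11 counts and was not tested. Of 13 cofactor genes, 4 rose in that comparison and 0 fell (30.8%, beside 33.2% of all tested genes), with a list median of 0.12 against -0.02 over all genes. *Sin3b*, a scaffold that MXD proteins bind, rose by 0.60 ± 0.0896 (edgeR adjusted p = 0.00309), and *Sin3a* gave -0.10 ± 0.110 (edgeR adjusted p = 0.52). *Zbtb17*, which encodes the MYC partner MIZ1, rose by 0.41 ± 0.0997 and the deacetylase genes *Hdac1* and *Hdac2* by 0.31 ± 0.0733 and 0.26 ± 0.0751. *Sin3b* also rose with Smad4 on under TGFβ1 (0.45 ± 0.0894, edgeR adjusted p = 0.0327), as 1 of the 13. Without the line term 1 of the 13 rose under TGFβ1, on library totals without TMM scaling 1 rose and 1 fell, and the rise with Smad4 on under TGFβ1 was not called (edgeR adjusted p = 0.137).

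Of 14 genes for MYC protein turnover tested, 1 rose and 2 fell under TGFβ1 in Smad4-on cells (21.4%, beside 33.2% of all tested genes), with a median of 0.03. *Fbxw7*, the ubiquitin ligase subunit that marks phosphorylated MYC for decay, rose by 0.83 ± 0.137 (edgeR adjusted p = 0.00447). *Usp28*, a deubiquitinase known to oppose it, fell (-0.57 ± 0.107), as did the ubiquitin ligase gene *Stub1* (-0.33 ± 0.102). *Usp28* was also the 1 of 14 that passed in Smad4-off cells (-0.41 ± 0.105, edgeR adjusted p = 0.0489), a call lost without the line term (edgeR adjusted p = 0.136) and in DESeq2 with the line (adjusted p = 0.0555). Without the line term 1 rose and 1 fell in Smad4-on cells, and on library totals 1 rose and 5 fell. MYC protein was not measured here.

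Among 13 factors known to act on *Myc* or *Mxi1* transcription, *Rbl1*, the p107 pocket protein that works with E2F4 and SMADs at the *Myc* promoter, was the 1 that passed in Smad4-on cells under TGFβ1 (7.7%, beside 33.2% of all tested genes). It fell there (log2 -0.58 ± 0.107, edgeR adjusted p = 0.00684) and in Smad4-off cells (-0.44 ± 0.106, edgeR adjusted p = 0.0379). *E2f4* gave 0.09 ± 0.112 and *Foxo3* -0.06 ± 0.158 in Smad4-on cells, and neither passed. *Ctnnb1*, the gene of β-catenin, rose in Smad4-off cells (0.44 ± 0.0994). With Smad4 on under TGFβ1, *Foxo1* rose by 0.82 ± 0.152 (edgeR adjusted p = 0.0266), beside *Smad4* itself at 1.73 ± 0.092. Under SB505124 only *Smad4* of the list passed in edgeR's test (1.62 ± 0.0919), whereas DESeq2 with the line passed 2 of the 13. *Foxo1* was higher with Smad4 on there too, at 40.3 against 24.6 CPM (B73) and 26.8 against 17.7 CPM (B87). For the difference between the TGFβ1 responses in the 2 Smad4 states, 0 of the 13 had an unadjusted p under 0.05 in edgeR's test. The calls for *Rbl1* and *Ctnnb1* in Smad4-off cells (edgeR adjusted p = 0.11 and 0.52) and for *Foxo1* (edgeR adjusted p = 0.278) were lost without the line term, whereas DESeq2 with the line kept all 3. On library totals without TMM scaling, 3 of the 13 fell under TGFβ1 in Smad4-on cells.

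Few of the genes that MYC is known to activate passed in the comparison in which *Myc* rose. Of 69 such genes, 6 rose and 5 fell under TGFβ1 in Smad4-on cells, which is 15.9% of the list beside 33.2% of all tested genes, with a median log2 change of 0.06 against -0.02. On library totals without TMM scaling 5 rose and 10 fell (median -0.08, beside -0.15 over all genes), and without the line term 4 rose and 2 fell. In Smad4-off cells 1 rose and 3 fell (5.8%, beside 13.2% of all tested genes, median -0.04). Of 31 ribosome biogenesis genes, *Rrp9* (0.68 ± 0.159, edgeR adjusted p = 0.0171) and *Pes1* (0.32 ± 0.101, edgeR adjusted p = 0.0498) rose in Smad4-on cells (6.5% of the list, beside 15.6% of all tested genes that rose). The list median was 0.16, with 25 of 31 values above 0. In Smad4-off cells 12 of the 31 were above 0 and 0 passed in edgeR's test or in DESeq2 with the line (0 at an unadjusted p under 0.05). The nucleolar targets *Ncl* (-0.06 ± 0.151) and *Npm1* (0.03 ± 0.157) and the rRNA methyltransferase gene *Fbl* (-0.10 ± 0.117) did not pass. In Smad4-on cells the lines went opposite ways for each of them. For B73, where *Myc* rose more (0.97, against 0.28 for B87), log2 CPM with SB505124 and then TGFβ1 was 10.93 and 11.09 (*Ncl*). It was 10.4 and 10.66 for *Npm1* and 6.09 and 6.14 for *Fbl*. The B87 pairs were 11.04 and 10.75, 10.69 and 10.46, and 6.18 and 5.93. *Rrp9*, *Pes1* and *Odc1* were higher under TGFβ1 in both lines. Whether targets followed *Myc* within a line was not tested. Of 18 nucleotide and polyamine synthesis genes, 4 fell and 0 rose (22.2%, beside 17.6% of all tested genes that fell), with a median of -0.22. They included *Shmt1* (-0.94 ± 0.186), *Tyms*, the thymidylate synthase gene (-0.60 ± 0.149), and *Prps2* (-0.49 ± 0.085), while *Odc1*, the classical polyamine target, gave 0.46 ± 0.197 (edgeR adjusted p = 0.116).

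Of the other 20 activated targets, 4 rose and 1 fell in Smad4-on cells. *Hk2*, a glycolytic hexokinase gene, rose 3.36-fold (log2 1.75 ± 0.093, edgeR adjusted p = 8.71e-05) and *Ldha*, for lactate dehydrogenase, 1.49-fold, whereas the cyclin gene *Ccnd2* fell 2.25-fold (log2 -1.17 ± 0.120). *Cdk4* gave 0.05 ± 0.119. With Smad4 on under TGFβ1, 3 of the 69 rose (*Hk2* 0.77 ± 0.0904, *Tfrc* 0.52 ± 0.111, *Ldha* 0.51 ± 0.117) and 1 fell, *Impdh1*, which encodes an enzyme of guanine nucleotide synthesis (-1.09 ± 0.0804, edgeR adjusted p = 0.0014). These 4 are 5.8% of the list, beside 6.8% of all tested genes. *Impdh1* also fell under SB505124 (-1.18 ± 0.0806), as the 1 gene of 69 that passed there (1.4%, beside 1.59% of all tested genes).

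Of 9 tested genes that MYC is known to repress, 5 rose and 3 fell under TGFβ1 in Smad4-on cells (88.9% of the list, beside 33.2% of all tested genes). *Gadd45a*, a stress-response gene, rose 8.68-fold (log2 3.12 ± 0.148), *Clu*, the clusterin gene, 7.63-fold (2.93 ± 0.204) and *Cdkn1a*, which encodes the cell-cycle inhibitor p21, 2.37-fold (1.24 ± 0.201, edgeR adjusted p = 0.00411). *Gas1*, a growth-arrest gene (log2 -3.57 ± 0.464), *Cebpa* (-2.63 ± 0.516) and *Cdkn1b*, the p27 gene (-0.41 ± 0.0955), fell. *Cdkn2b*, another inhibitor gene that MYC represses, had 0 counts in all 8 libraries and was not tested. The paper reports that nearly all the tumor lines of this model it examined had lost both copies of the *Cdkn2a/b* region. Whether B73 and B87 carry that loss was not tested, so these 0 counts cannot be read as repression. Of the 9 tested genes, 4 rose and 2 fell in Smad4-on cells without the line term. In Smad4-off cells 5 rose and 2 fell (77.8%, beside 13.2% of all tested genes), and there 1 rose and 0 fell without the line term.

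**Figure D5:**
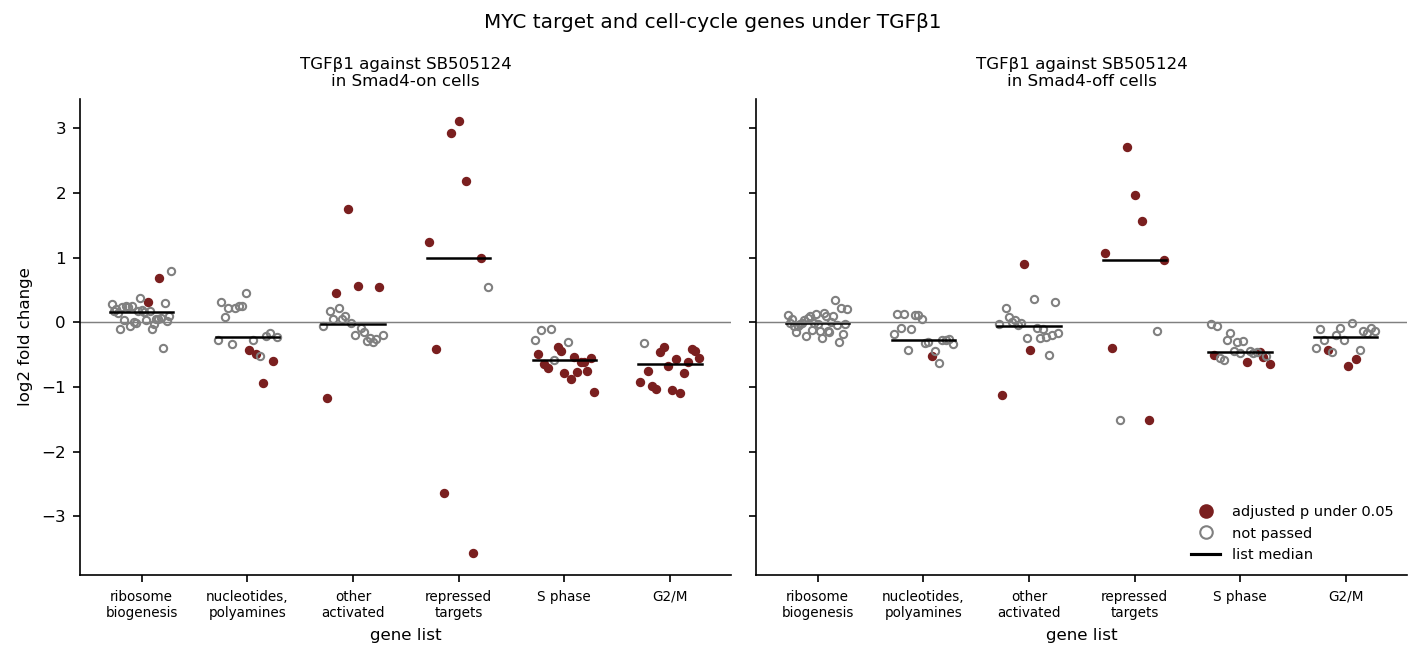
Log2 fold change of each listed gene for TGFβ1 against SB505124 in Smad4-on cells (left) and Smad4-off cells (right); filled points had an adjusted p under 0.05 and lines mark list medians. Activated MYC targets lie around 0 (medians 0.16, -0.22 and -0.03 in the left panel), while S phase and G2/M genes lie below it (-0.58 and -0.65).

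Cell-cycle genes moved in the same comparison as *Mxd3*. Of 19 S phase genes, 14 fell and 0 rose under TGFβ1 in Smad4-on cells (73.7%, beside 17.6% of all tested genes that fell, median -0.58). Their largest changes were those of *Uhrf1*, which maintains DNA methylation (log2 -1.07 ± 0.140), and of the replicative helicase genes *Mcm5* (-0.88 ± 0.127) and *Mcm3* (-0.79 ± 0.132). Of 16 G2/M genes, 15 fell and 0 rose (93.8%, median -0.65), among them *Mki67*, the gene of the proliferation marker Ki67 (-1.09 ± 0.140), the kinesin gene *Kif11* (-1.04 ± 0.158) and *Cdc20* (-1.03 ± 0.132). Without the line term, 6 S phase and 9 G2/M genes fell. In Smad4-off cells 5 S phase genes (26.3%, median -0.46) and 3 G2/M genes (18.8%, median -0.23) fell, beside 6.24% of all tested genes, and 0 of either list did without the line term, where DESeq2 with the line passed 11 and 4. With Smad4 on under TGFβ1, 0 of 19 S phase genes passed in edgeR's test (5 at an unadjusted p under 0.05, 0 in DESeq2 with the line) and 1 of 16 G2/M genes did, *Ccnb2* (-0.74 ± 0.102, edgeR adjusted p = 0.00956). All 16 G2/M values were below 0 there (median -0.37), 12 had an unadjusted p under 0.05, DESeq2 with the line passed 3, and edgeR's test without the line term passed 0. With Smad4 on under SB505124, 0 genes of either list passed in edgeR's test or in DESeq2 with the line, and 0 had an unadjusted p under 0.05. The part of the cell-cycle change in the level of *Mxd3* was not tested.

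Over the 8 libraries, the genes whose log2 CPM followed *Myc* most closely, among 11100 genes of sufficient level, were *Zfp639* (Pearson's r = 0.974), *Gfra1* (r = 0.957) and *Zrsr2* (r = 0.952), and 67 genes reached an r of 0.9. For *Mxd3* they were *Erbb2* (r = 0.994), *Keap1* (r = 0.986) and *Tspan5* (r = 0.984), and 646 genes reached 0.9. The 8 points of each correlation share the 2 lines and the 4 conditions, so these values are descriptions and were not tested.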

How the data were processed

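The authors deposited a table of raw read counts per Ensembl gene, with 1 column per library and no pooling. Stranded poly(A) libraries had been sequenced as 75-bp single reads, and the submitters' processing notes name FastQC 0.11.5, Trimmomatic 0.36, STAR 2.5.3a and featureCounts 1.6.3 with GRCm38 (mm10). The settings for strand and for multi-mapping reads were not given in the sources used here. Groups came from the sample labels, and a further allele of the model, shared by all libraries, is not reported here. CPM are counts scaled to the library total, and RPKM divide these by the union of annotated exons (GENCODE). Counts of genes with sufficient level (filterByExpr, 14301 of 53465 genes) were TMM-scaled and fitted with edgeR 4.0.16 (R 4.3.3, quasi-likelihood F-test) on 4 groups and the line, with Benjamini-Hochberg adjustment, and interval values are 95%. Per-line changes used the TMM-scaled log2 CPM with a prior count of 2.

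The line named in each title pairs the libraries. Deviations of libraries of 1 line from their group means correlated at r = 0.642 to 0.774 over the 6 pairs of groups (median 0.758), so the line was kept as a term. Alternatives were DESeq2 1.42.0, other size factors, other filters, fits without the line, fits of the 4 libraries compared, the rule of over 2-fold, the longest transcript as gene length and leaving out each library. A fit on library totals was added after the data were seen. Scripts were tested on simulated counts. The members and gene lists were chosen with earlier results of these data known.

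The genes named are the 9 members, up to 3 passing genes of largest change from each list, fixed counterparts of the members by role, and the 3 genes most alike in pattern (mean log2 CPM of at least 1) to *Myc* and to the other member of smallest adjusted p. *Cebpa*, *Cdkn1a*, *Cdkn1b*, *Cdkn2b*, *Npm1*, *Fbl* and *Hdac2* were added after their values were seen. The *Myc* promoter was not analysed here.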

Additional observations from a re-analysis of the deposited data

Results flagged for a closer look

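*Ndrg1*, a growth-arrest and stress gene that MYC is known to repress, responded to TGFβ1 differently in the 2 Smad4 states. The difference between the responses was 1.13 ± 0.138 on the log2 scale (edgeR adjusted p = 0.0471, B73 1.34, B87 0.92). In Smad4-on cells TGFβ1 raised it by 1.00 ± 0.0978 (edgeR adjusted p = 0.000576), and in Smad4-off cells the change was -0.13 ± 0.0982 (edgeR adjusted p = 0.428). Without the line term the difference did not pass (edgeR adjusted p = 0.673), and DESeq2 with the line gave an adjusted p of 8.13e-08. The call was also lost on leaving out any 1 of the 8 libraries (edgeR adjusted p from 0.0665 to 0.282) and on library totals without TMM scaling (0.0636). It was the only gene of the lists, out of those tested, that passed this comparison in edgeR's test.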

How the results depend on the processing

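With 2 libraries per group and low counts for *Mycl* and *Mycn*, 6 of the 7 member calls in the 4 comparisons were lost without the line term in edgeR's test and 2 (both *Mycl*) in DESeq2. For Smad4 on against off under TGFβ1, the count of members passing (1) became 0 with edgeR or DESeq2 without the replicate block (the line), 2 with no filter on low counts and 2 in a fit of the 4 libraries compared, and was 0 to 1 on leaving out 1 library, where the 1 was *Mxd4* and not *Mycl*. Under SB505124 it became 3 with no filter and 1 in DESeq2 with the line. For TGFβ1 in Smad4-on cells (4) it became 2 with the rule of over 2-fold, 1 on library totals, 1 in edgeR and 3 in DESeq2 without the replicate block, and was 1 to 5 on leaving out 1 library (5 with *Mycn*). For TGFβ1 in Smad4-off cells (2) it became 1 with the rule of over 2-fold and 0 in edgeR without the replicate block, stayed at 2 in DESeq2 without it, and was 0 to 2 on leaving out 1 library. With a filter of at least 10 counts in every library, 3 of the 8 members tested passed for TGFβ1 in Smad4-on cells, and *Mxd4* did not. The causes of these changes in the counts were not tested, and for 1 library left out the fit has fewer samples.

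Signs changed only for values that did not pass. On library totals they were -0.0041 for *Max* (TGFβ1, Smad4 off), -0.024 for *Mxd1* (Smad4 under TGFβ1), -0.014 for *Mxd4* (Smad4 under SB505124), -0.0017 for *Mxi1* and -0.012 for *Mnt* (TGFβ1, Smad4 on). *Mnt* with Smad4 under SB505124 was 0.0032 with DESeq2 size factors, 0.0082 with no filter and 0.0033 in DESeq2 with the line. On leaving out 1 library, values with Smad4 on against off under TGFβ1 ran from -0.11 to 0.45 for *Myc*, from -0.14 to 0.35 for *Mxd1* and from -0.37 to 0.13 for *Mxi1*. Under SB505124 they ran from -0.45 to 0.021 for *Myc*, from -0.21 to 0.08 for *Max*, from -0.45 to 0.64 for *Mxd4* and from -0.17 to 0.15 for *Mnt*. For TGFβ1 in Smad4-off cells they ran from -0.019 to 0.45 for *Myc*, from -0.09 to 0.20 for *Max* and from -0.28 to 0.81 for *Mxd4*, and in Smad4-on cells from -0.13 to 0.36 for *Mxi1* and from -0.023 to 0.28 for *Mnt*. Of 576 values of the 8 members other than *Mycn* under the alternatives, 497 kept their sign and side of the threshold, 47 lost and 9 gained a call and 23 changed sign. Only the 7 member calls, each read under 17 alternatives, could be lost, so all of the losses fell on them. Values that had not passed had no call to lose. With the longest transcript as gene length, the log2 ratio of antagonists to MYC family under TGFβ1 became -1.36 and -1.43 with Smad4 off (B73, B87) and -1.34 with Smad4 on in B87.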
